A study of Mus musculus with 2 samples.

Results

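Peaks of Prrc2a RIP-seq that covered an annotated start codon in mouse brain are described here. A peak was taken from replicate 1 when it overlapped a replicate 2 peak by at least 1 bp and also overlapped the start codon of a protein-coding transcript in GENCODE release M21. This gave 965 of the 8372 peaks shared between replicates (11.5%, 95% Wilson interval 10.9 to 12.2), out of 18129 peaks in replicate 1. They lay in 913 coding genes, each peak being assigned to the coding gene whose exons it overlapped by the most bases. The members were chosen by peak position in both replicates, so their position at the start codon in replicate 1 and their overlap with replicate 2 are part of the choice and not results. In all, 1322 replicate 1 peaks covered a start codon, and 73.0% of them were shared (70.5 to 75.3), against 46.2% of all replicate 1 peaks. Seen from replicate 2, 62.5% of 1513 start codon peaks were shared (60.0 to 64.9), against 47.8% of all its peaks. Stop codon peaks were shared at like rates (76.8% of 1205 and 62.6% of 1384), and coding exon peaks over neither codon at 58.1% and 44.9%. The intervals cover counting error only, since peaks are not replicates of a condition.

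RIP-seq sequences the RNA that comes down with a protein on an antibody, here one against Prrc2a. The samples were 2 replicates of a single condition: whole brain of wild type C57BL/6J male mice, 4 weeks old, with no second genotype, treatment or time. The protocol describes 3 brains, and the labels do not tie a brain to a replicate. Each deposited list gives a peak's chromosome, start, end and fold enrichment, which is a linear ratio between the immunoprecipitate and a control library that the sources used here do not name for this call. The lists hold no strand, summit, FDR or read total, so the depth is unknown, and fewer cells of a type cannot be told apart from less RNA per cell. With 2 replicates, an exact two-sided sign-flip test cannot go below p = 0.5. No test was therefore run, and the spread between replicates (SD, n = 2) is given as the error.

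Prrc2a is a large proline-rich coiled-coil protein that has been described as a reader of N6-methyladenosine (m6A), a methyl mark on internal adenosines of mRNA that is most often found in a GGAC or related motif. In most mRNAs, the small ribosomal subunit scans the 5′ UTR from the cap until it meets an AUG in a favourable context. A purine 3 bases before the AUG and a G directly after it favour recognition. The start codon therefore marks the border between the scanned leader and the translated sequence, and a peak over it joins both.

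The start codons of the 12 most enriched genes, ranked by the mean log2 fold enrichment over both replicates, are printed first, because these members carry the highest values. Each line runs 5′ to 3′ on the transcript strand of GRCm38 (mm10), with the start codon in capitals, up to 12 bases before it and 15 after it. Some lines are shorter because the annotated transcript begins there.
Hist1h1d, chromosome 13, 23555090 to 23555092, plus strand: aaagcttagaacATGtccgagaccgctccc
Hist1h4b, chromosome 13, 23757021 to 23757023, plus strand: atttaactATGtctggtcgcggcaag
Hist1h4c, chromosome 13, 23698447 to 23698449, minus strand: taaccATGtctggacgtggtaag
Wnt1, chromosome 15, 98790189 to 98790191, plus strand: gccaggcaggccATGgggctctgggcgctg
Hist2h3b, chromosome 3, 96268694 to 96268696, plus strand: agtcgcaaaaatATGgcccgtacgaagcag
Hist1h4j, chromosome 13, 21735096 to 21735098, plus strand: ctgagtgcagtcATGtctggcagaggtaag
Hist1h3f, chromosome 13, 23544485 to 23544487, plus strand: ttctttgtagaaATGgctcgtactaagcag
Hist1h4f, chromosome 13, 23551641 to 23551643, minus strand: tagccATGtctggtcgtggtaag
Zfp217, chromosome 2, 170120403 to 170120405, minus strand: gtggttggcagcATGccgacccagtccctc
Syt14, chromosome 1, 192984592 to 192984594, minus strand: aggaactggaaaATGgcatttttcaaaagt
Egr2, chromosome 10, 67538221 to 67538223, plus strand: tgcgaggagcaaATGatgaccgccaaggcc
Hist1h3e, chromosome 13, 23562363 to 23562365, minus strand: tgcaATGgctcgtactaagcag

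Of these 12, 8 were histone genes, and the leading members of other gene groups are shown for comparison below in the same form. Among the 12, 11 had a purine at position -3, counting the A of the start codon as +1, and 5 had both that purine and a G at +4. The exception at -3 was Egr2.
Sox21, chromosome 14, 118235633 to 118235635, minus strand: cacggcgacagcATGtccaagcctgtggac
Kcnh5, chromosome 12, 75176526 to 75176528, minus strand: tccagacccaggATGccggggggcaagaga
Grin3a, chromosome 4, 49845079 to 49845081, minus strand: cgggtctcagtaATGaggagactgagtttg
Drd1, chromosome 13, 54054191 to 54054193, minus strand: tccttctggaagATGgctcctaacacttct
Efna5, chromosome 17, 62881128 to 62881130, minus strand: tggctaggcgtgATGttgcacgtggagatg
Flrt1, chromosome 19, 7097178 to 7097180, minus strand: cagccatccaccATGgtggtggcacactct
Chd9, chromosome 8, 90932414 to 90932416, plus strand: gggagtttcaaaATGacagacccaatgatg
Rbm15, chromosome 3, 107333078 to 107333080, minus strand: attaattgaccaATGaggtctgcggggcgg

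The replicate 2 partner of a member, the replicate 2 peak with the most overlapping bases, covered the same start codon in 733 of 965 cases (76.0%, 73.2 to 78.5). The rule required the partner to overlap the member but not to cover the codon. Counted the other way, the replicate 1 partner covered the start codon for 762 of 945 shared replicate 2 peaks (80.6%, 78.0 to 83.0). The mean of both directions was 78.3% ± 3.31 (SD of the 2 directions). Both directions compare the same pair of peak lists, so this SD is not a spread between independent replicates. For shared peaks over a stop codon, the partner covered a stop codon in 620 of 925 cases (67.0%, 63.9 to 70). The partner covered the midpoint of the member in 85.4% of members and that of other coding exon peaks in 86.7%. Counted by codon instead of by peak, 1358 start codons lay under a replicate 1 peak, 1552 under a replicate 2 peak and 802 under both. That is 59.1% of the first set and 51.7% of the second.

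Measured along the spliced transcript, replicate 2 coverage was highest 10 bases after the first base of the start codon, where 75.5% of transcripts lay under the partner. A maximum near the codon follows from the choice, since each partner overlaps a peak that covers it. Replicate 2 coverage was 57.4% at 100 bases before the codon and 64.5% at 100 bases after it. At 300 bases the values were 44.2% before and 40.8% after, over the transcripts that reach that far. The members extended a median of 142 bases into the 5′ UTR (quartiles 39 and 337) and 253 bases from the start codon on (104 and 713). More of the peak lay from the start codon on than before it in 598 members (62.0%). Peak midpoints that fell in an exon had a median position of 77 bases after the start codon in replicate 1 and 106 in replicate 2. Coverage was thus higher after the codon than before it at 100 bases and higher before it at 300 bases, and the bases before it are limited by the length of the 5′ UTR.

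**Figure D1:**
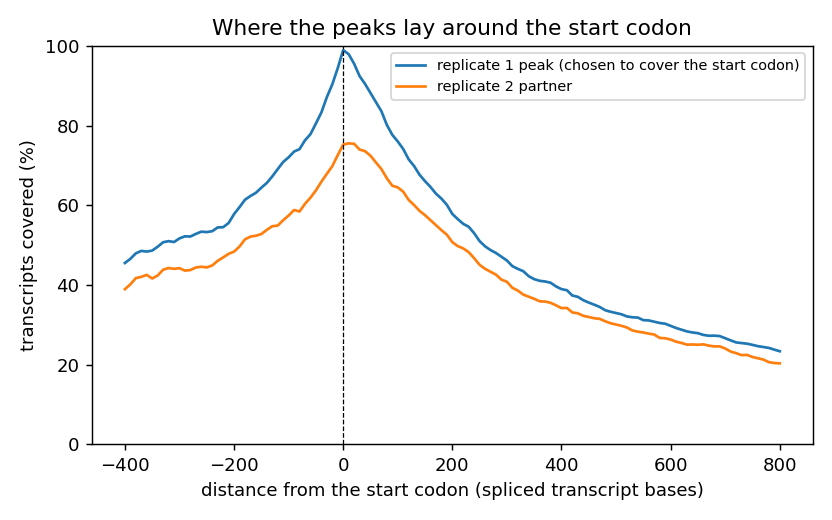
Share of transcripts covered (y axis, percent) by the replicate 1 member and by its replicate 2 partner at each distance from the start codon (x axis, spliced transcript bases, negative in the 5′ UTR), over 411 to 965 transcripts that reach each distance. The replicate 1 line is fixed near 99% at 0 by the choice of members, and the replicate 2 line, whose partners had to overlap those members and so lie near 0 by construction, reaches 75.5% at 10 bases.

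The members were wide. Their median width was 708 bp in replicate 1 (200 to 9753) and 568 bp for the partner in replicate 2, and the overlap had a median of 482 bp (17 to 6060). Other shared peaks over coding exons had a median width of 439 bp, and those over stop codons 809 bp. A wide peak reaches a codon or a peak of the other replicate more easily, so width is tied to the choice. In 155 members, 2 or more replicate 2 peaks lay under the replicate 1 peak. The rule also allows 1 replicate 2 peak to be the partner of several replicate 1 peaks, and such cases were not counted. The 232 members whose partner missed the start codon were wider (median 934.5 bp) than the 733 whose partner covered it (631 bp). They also extended further from the start codon on, with a median of 448.5 bases against 234.

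A total of 107 members (11.1%) also reached a stop codon, and in 99 of these the whole coding sequence lay within the peak. These 107 had a median coding sequence of 1047 bases, and 99 of them came from transcripts with a single coding exon. Such transcripts made up 19.6% of members, against 16.4% of all coding genes and 11.0% of genes whose shared peaks lay elsewhere. In 335 members (34.7%) the peak reached the first base of the annotated transcript, and 333 began upstream of it, by a median of 161 bp. The lists give no strand, and 105 members also overlapped an exon on the opposite strand. Reads from such overlapping genes cannot be told apart here.

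Fold enrichment comes from the same peak calls as the rule and is given as a description. Its median over the members was 2.61 in replicate 1 (quartiles 2.05 and 3.64, range 1.29 to 20.0) and 3.06 in replicate 2 (2.34 and 4.05, range 1.33 to 31.5). Shared peaks over a stop codon but no start codon had medians of 2.26 and 2.82, and other shared peaks over coding exons 2.22 and 2.76. The start codon medians were thus the highest among coding exon classes in both replicates. Shared peaks outside coding-gene exons lay above them, at 3.20 and 3.74. When all peaks of each replicate were counted, shared or not, start codon peaks had medians of 2.59 and 2.74 (mean 2.66 ± 0.106 SD, n = 2). Stop codon peaks then had 2.27 and 2.44, and other coding exon peaks 2.33 and 2.48. Over all peaks of a replicate the medians were 2.84 and 2.63. Start codon peaks thus lay below that median in replicate 1 and above it in replicate 2.

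Both replicates reached a fold enrichment of 4 or more in 125 members (13%, 11.0 to 15.2), against 8.62% of all shared peaks. Without the histone genes it was 100 of 939 (10.6%, 8.83 to 12.8), and the medians were 2.55 and 3.01. With histone genes kept, the share was 6.60% for stop codon peaks, 5.29% for other coding exon peaks and 23.7% outside coding-gene exons. Start codon peaks also had the highest medians of the coding exon classes within each of 3 bins of peak width. Among peaks of 200 to 399 bp, start codon peaks had medians of 2.28 and 2.78, and other coding exon peaks 2.01 and 2.64. Among peaks of at least 800 bp the medians were 2.85 and 3.42 for start codons, 2.52 and 3.11 for stop codons, and 2.50 and 3.0 for the other coding exon peaks.

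**Figure D2:**
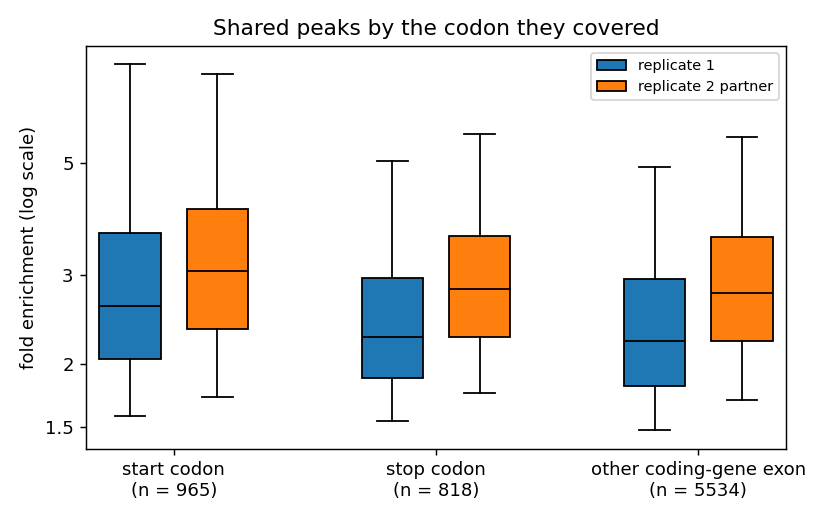
Fold enrichment (y axis, log scale) of shared peaks by class and replicate (blue, replicate 1, and orange, replicate 2 partner). Boxes span the quartiles with the median as a line, and whiskers span the 5th to 95th percentile. Start codon peaks have the highest medians of the 3 classes in both replicates (2.61 and 3.06), with boxes that overlap those of the other classes.

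The replicates ranked the members alike only in part. Across the 965 members, Spearman's rho between the replicates was 0.636, a description over peaks that share libraries. The median log2 difference, replicate 2 minus replicate 1, was 0.20 with an SD of 0.56 across members, and 636 members (65.9%) were higher in replicate 2, against 70.4% of all shared peaks. The largest differences ran both ways. Hist2h4, a histone H4 gene, was enriched 13.1-fold in replicate 1 and 2.68-fold in replicate 2. Slco5a1, a member of the organic anion transporter family, had 2.77 and 13.4, and a shared coding exon peak (3.52 in replicate 1) had the same replicate 2 value. Pde7b, a phosphodiesterase that breaks down cyclic AMP, had 3.82 and 17.5. Ephb3, an ephrin receptor, had 2.26 and 7.87 in one of its members, and Vgll4, a cofactor of Tead transcription factors, had 2.29 and 7.78. In the last 4 genes the partner covered the start codon, whereas in Hist2h4 it did not. Exact values recurred, and Pde7b and Zfp217 had the same value in replicate 2. A value held by at least 10 peaks of its replicate occurred in 33 members in replicate 1 (3.42%, against 5.96% of all shared peaks). In replicate 2 it occurred in 61 members (6.32%, against 12.1%). The origin of these ties was not tested, and they limit the ranking of single genes.

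**Figure D3:**
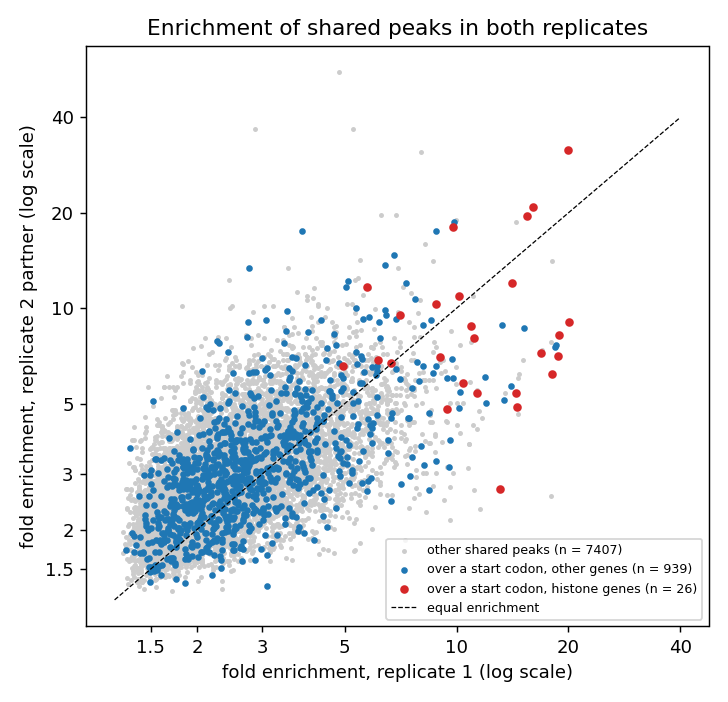
Fold enrichment of each shared peak in replicate 1 (x axis, log scale) and of its replicate 2 partner (y axis, log scale). Histone members (red, 26) spread over 4.93 to 20.0 in replicate 1 and 2.68 to 31.5 in replicate 2, whereas the other 939 start codon members (blue) follow the cloud of the remaining 7407 shared peaks (grey).

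Within a gene, the start codon peak was compared with the other shared peaks of the same gene. This was possible in 698 of the 913 genes. The start codon peaks were higher by a median of 0.18 on the log2 scale in replicate 1 and 0.11 in replicate 2. They were higher in 477 genes in replicate 1 (68.3%) and in 411 in replicate 2 (58.9%). The direction was the same in both replicates in 320 genes with higher start codon peaks and in 117 with lower ones. Another 211 genes had no shared peak besides the member. A shared stop codon peak was present in 447 of the 913 genes (49.0%), a count that includes members reaching a stop codon themselves. With members left out it was 347 genes (38.0%), against 440 of the 1645 other genes with a shared coding exon peak (26.7%). Member genes had a median of 3 shared peaks, and the highest count was 51. The part of the number of peaks per gene in this difference was not tested.

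Most of the 913 genes held 1 member (866), 43 held 2, and Pde4d, Rapgef2 and Samd4 held 3. Macf1, a large linker of actin and microtubules, held 4. Several members of 1 gene can lie over the start codons of different annotated transcripts, and they are not independent of each other. In 833 members (86.3%) the peak covered the start codon of the gene's reference transcript, and the rest covered that of another annotated transcript. In 11 members the covered start codon belonged to another gene than the assigned gene.

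Histone genes led the ranking, with 26 members, 8 among the 12 most enriched and 13 among the 20 most enriched. Histones package DNA, and the mRNAs of the replication-dependent ones end in a stem-loop in place of a poly(A) tail. Hist1h1d, which encodes a linker histone, was enriched 19.9-fold in replicate 1 and 31.5-fold in replicate 2, the highest mean of all members. The H4 genes Hist1h4b (16.0 and 20.8) and Hist1h4c (15.5 and 19.6) followed. In these 3 genes replicate 2 was higher. Hist2h3b, an H3 gene, was instead higher in replicate 1 (20.0 and 9.05), as were Hist1h4f (18.9 and 8.21) and Hist1h3e (18.7 and 7.08). Hist1h4j had 9.79 and 18.1, and Hist1h3f had 14.1 and 12.0.

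Over the 26 histone members the median was 11.2 in replicate 1 and 7.63 in replicate 2, and 11 of them were higher in replicate 2. They comprised 10 H4, 5 H3, 5 H2B, 3 H2A and 3 H1 genes, and all 26 had a single coding exon. The partner covered the start codon in 21, and 18 also reached the stop codon. Of 11 linker histone genes, 4 had a shared exonic peak and 3 held a member. The remaining gene, Hist1h1a, had a shared peak over its stop codon (9.99 and 19.0). Of 72 core histone genes, 31 had a shared exonic peak and 23 held a member (74.2%, 56.8 to 86.3). Within the H4, H3 and H2B families the coding sequences of these genes are close copies, whereas no identity is given for H1 or H2A. Pairwise identity was 88.0 to 98.4% among the 10 H4 members, 93.9 to 98.8% among the H3 members and 93.9 to 98.1% among the H2B members. The printed lines show this at the start codon, where all 4 H4 genes continue with tctgg and Hist1h3f and Hist1h3e share every printed base after the ATG. The values of single H4, H3 and H2B genes are therefore uncertain, and the H2A and H1 genes were not compared in this way. Only uniquely mapped reads were kept, so reads that matched several copies alike were left out. What this did to single genes was not tested. Of the members on chromosome 13, 23 of 69 were histone genes. That chromosome had the highest share of members among its shared peaks (20.7%). Without the histone genes it had 15.1%, below the 15.5% of chromosome 19.

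Outside the histones, 7 genes were among the 20 most enriched. Wnt1, a secreted ligand that patterns the midbrain, was enriched 9.87-fold in replicate 1 and 18.7-fold in replicate 2. Of the 1383 bp of the Wnt1 member, 436 were exonic and 662 lay before the annotated transcript. Zfp217, a zinc finger regulator of transcription, had 8.83 and 17.5. Both were higher in replicate 2. Syt14, of the synaptotagmin family of membrane trafficking proteins, had 18.5 and 7.67, and Egr2, an activity-regulated zinc finger factor of hindbrain and Schwann cells, had 18.5 and 7.53. These were higher in replicate 1. In all 4 genes the partner covered the start codon, and neither replicate's value fell below 7.53. Pde4d, another cyclic AMP phosphodiesterase, reached 15.2 and 8.66, Kcnh5 13.2 and 8.82, and Tent5c, a poly(A) polymerase, 6.77 and 14.7. These 3 genes complete the non-histone part of the 20 most enriched, and in each of them the partner covered the start codon.

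At the other end were Ric8b, a chaperone of G protein subunits (1.53 and 1.48), and Chd3, a chromatin remodeler (1.29 and 1.72). Ctnnd1, which encodes p120 catenin, had 1.49 and 1.47, and Kcnma1, a calcium-activated potassium channel, had 1.49 and 1.36. These genes were among those with the lowest means of all members, and in each the partner nevertheless covered the start codon. The widest member, 9753 bp, lay over Flrt1, a leucine-rich repeat membrane protein with a single coding exon, and had 5.35 and 9.99. Its partner missed the start codon, so 9.99 is the value of a replicate 2 peak away from that codon.

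Gene groups were compared by the share of genes with a member among genes with a shared exonic peak, which was 34.7% over all coding genes (913 of 2629). Here a gene counted when a shared peak touched any of its exons, whereas 2558 genes had a shared peak assigned to them by the most exon bases. Among the ion channels and receptors of neurons, potassium channels held 28 members in 27 of 40 such genes (67.5%, 52.0 to 79.9). Kcnh5, a voltage-gated channel, led the list, followed by Kcng3 (7.75 and 10.7), a modulatory subunit, Kcnb2 (8.16 and 3.20), a delayed rectifier, and Kcnq5 (5.42 and 4.30), an M-type channel subunit. The partner covered the start codon in 27 of the 28 potassium channel members. Medians were 2.54 and 3.27, close to those of all members.

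Glutamate and GABA receptor genes held a member in 10 of 13 cases (76.9%, 49.7 to 91.8). All 10 were glutamate receptors, with Grin3a, an NMDA receptor subunit, first (3.79 and 3.99), then Grm8, a metabotropic receptor (3.52 and 3.64), Grik3, a kainate receptor subunit (3.50 and 3.62), and Grin2a, an NMDA receptor subunit (2.72 and 3.04). These 4 were a little higher in replicate 2. The aminergic, muscarinic and adenosine receptors held a member in 14 of 20 genes (70%, 48.1 to 85.5). The dopamine receptor Drd1 had 6.09 and 6.58, and the serotonin receptors Htr5a, Htr6 and Htr1a had 5.50 and 5.82, 4.40 and 4.60, and 6.67 and 2.47. Htr1a thus had the highest value of the list in replicate 1 and a low one in replicate 2, where its partner missed the start codon. Of these 14 members, 7 came from transcripts with a single coding exon.

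Genes of cell contact and axon growth came next. Leucine-rich repeat membrane proteins, which organise synapses, held a member in 16 of 22 genes (72.7%, 51.8 to 86.8), and 11 of the 16 members had a single coding exon. After Flrt1 came Lrfn1 (2.91 and 4.40), Slitrk2 (2.94 and 4.22) and Flrt2 (3.48 and 3.54). Axon guidance genes held a member in 16 of 30 genes (53.3%, 36.1 to 69.8). Efna5, an ephrin ligand, had 6.21 and 8.07, Ephb3 had 3.08 and 9.18 in its more enriched member, the secreted repellent Slit2 had 4.57 and 5.95, and the netrin receptor Dcc had 7.49 and 2.96. The Efna5 member was 6618 bp wide and ran from 62880895 to 62887512. Its start codon lies at 62881128 to 62881130 on the minus strand, so most of that peak was on the upstream side of the codon. The clustered protocadherins, adhesion proteins that give neurons surface identity, held a member in 15 of 29 genes (51.7%, 34.4 to 68.6). Pcdhb16 (4.54 and 5.49), Pcdha11 (4.63 and 5.30), Pcdha7 (4.20 and 4.34) and Pcdhac1 (3.64 and 4.48) led them. Only 9 of the 15 partners covered the start codon in this family. Its genes lie in tandem clusters with related variable exons on chromosome 18 and can share constant exons, so their single values are uncertain, and sequence identity between them was not computed.

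Wnt ligands, receptors and regulators held a member in 10 of 18 genes (55.6%, 33.7 to 75.4). Besides Wnt1, the ligand Wnt7b had 4.94 and 6.02, and the frizzled receptors Fzd5 and Fzd10 had 5.91 and 4.18, and 5.27 and 4.57. The partner missed the start codon in Fzd10 and covered it in 9 of the 10 members of this list. Of the Notch receptors and ligands, 2 of 5 genes held a member, namely the receptor Notch2 (3.91 and 2.83) and the ligand Dll1 (2.52 and 3.63). Notch1, Jag1 and Jag2 had shared peaks elsewhere, and Notch1 had 18 of them. Immediate early genes, which respond within minutes to neuronal activity, held a member in 9 of 17 genes (52.9%, 31.0 to 73.8). After both Egr2 members came Fosb (5.09 and 12.2) and Fosl2 (4.21 and 4.89), subunits of the AP-1 factor, and the nuclear receptor Nr4a3 (4.04 and 3.40). The partner covered the start codon in 6 of the 10 immediate early members. It missed the codon in Nr4a3 and in the less enriched Egr2 member.

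Shares in transcription factor families ranged from 15.4 to 57.1%, with wide intervals. Sox factors held a member in 4 of 7 genes (57.1%, 25 to 84.2): Sox21 (6.10 and 6.32), Sox9 (2.30 and 4.84), Sox11 (2.88 and 2.30) and Sox4 (1.96 and 2.02). The Zic, Gli, Klf and Egr zinc fingers held a member in 5 of 14 genes (35.7%, 16.3 to 61.2), with Sp8 (4.06 and 5.21) and Klf5 (4.74 and 2.34) after Egr2. Zbtb factors held a member in 7 of 20 genes (35.0%, 18.1 to 56.7), led by Zbtb3 (3.06 and 6.37), Zbtb8b (2.74 and 4.30), Zbtb44 (3.64 and 3.06) and Zbtb20 (2.69 and 3.85). The partner covered the start codon in 3 of these 7 members, Zbtb3 among them. It missed the codon in Zbtb8b, Zbtb44 and Zbtb20. Forkhead factors held a member in 3 of 9 genes (33.3%, 12.1 to 64.6), namely Foxo6 (2.31 and 3.46), Foxp1 (2.45 and 2.16) and Foxo1 (1.66 and 3.11). Homeobox and Pax factors held a member in 2 of 13 genes (15.4%, 4.33 to 42.2), among them Emx2 (2.00 and 2.34).

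Chromatin remodelers and histone modifiers held 15 members in 14 of 30 genes (46.7%, 30.2 to 63.9). The remodeler Chd9 had 5.02 and 11.7, the methyltransferase Nsd1 2.85 and 4.89, the demethylase Kdm6b 3.51 and 3.30, and the acetyltransferase Crebbp 3.74 and 2.70. Those Chd9 values came from its more enriched member, whose partner missed the start codon. The partner covered the start codon in 11 of the 15 members. Of 18 m6A writers, erasers and readers, 5 had a shared exonic peak and 2 held a member. Rbm15, which guides the methyltransferase complex, had 4.43 and 3.73, with a partner that missed the start codon. Alkbh5, an m6A demethylase, had 1.78 and 3.31. Virma, Zc3h13 and Rbm15b, all of the writer complex, had shared peaks away from the start codon. Of the Prrc2 family, Prrc2c alone had a shared exonic peak (1.67 and 2.05), and it was not over a start codon.

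Several groups held no member. Of 55 translation initiation genes, 4 had a shared exonic peak (Eif2ak3, Eif2ak4, Eif4e2 and Eif4ebp2) and none was over a start codon. Over all coding genes, 12.0% (2629 of 21951) had a shared exonic peak. None of the 83 cytosolic ribosomal protein genes had a shared exonic peak. Of 17 oligodendroglial regulators and markers, Olig2 (1.69 and 1.75), Nkx2-2 (5.13 and 5.31) and Zfp488 (3.38 and 3.92) had shared exonic peaks, none over a start codon. As a check of the labelled tissue, marker genes were also counted, although a peak list does not measure expression. None of 10 neuron markers, 8 oligodendrocyte markers, 8 pituitary markers or 10 liver and muscle markers had a shared exonic peak. Of 8 astrocyte markers, Slc1a2 had 1, and of 8 microglia markers, Csf1r and Tmem119 did. None of these markers held a member, so the markers neither bore out nor contradicted the label.

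**Figure D4:**
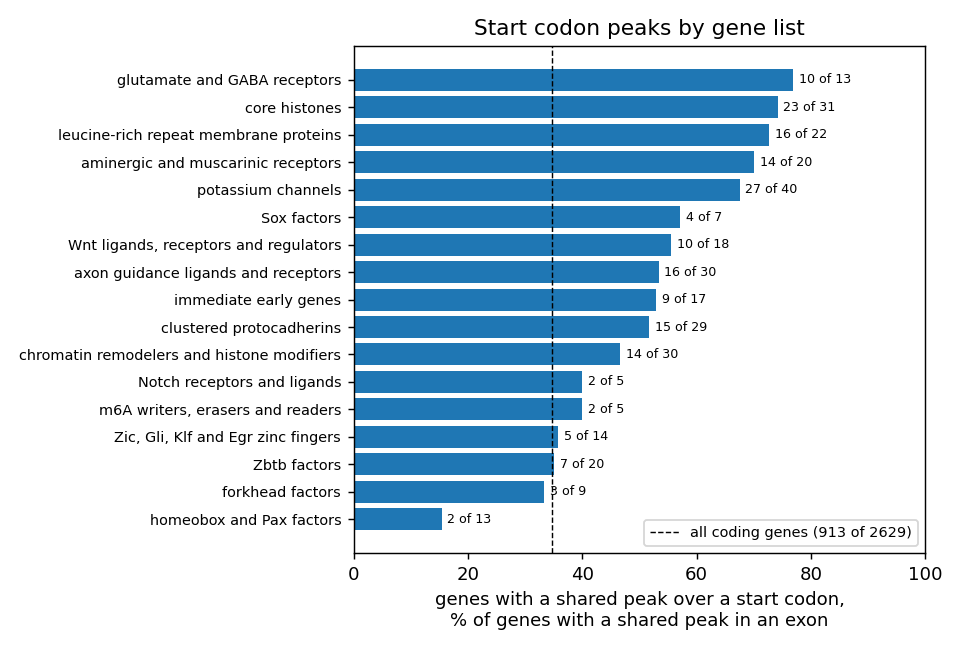
Genes with a start codon member as a percent of genes with a shared exonic peak (x axis), for the gene groups with at least 5 such genes (y axis), with the counts beside the bars and all coding genes as a dashed line (34.7%). Glutamate and GABA receptors (10 of 13), core histones (23 of 31) and leucine-rich repeat membrane proteins (16 of 22) have the longest bars, and homeobox and Pax factors (2 of 13) the shortest. The groups are small, and no test was run on them.

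Features that the rule did not use were then read from the transcripts. Members had long leaders and long exons at the start codon. The 5′ UTR had a median of 340 bases, against 236 for genes with shared peaks elsewhere only and 138 for genes without a shared peak. The exon that holds the start codon had a median of 748 bases, against 329 and 243, and it exceeded 500 bases for 66.0% of members, 36.1% of genes with shared peaks elsewhere and 26.5% of genes without one. An upstream ATG in the 100 bases before the start codon was sought only where the 5′ UTR had at least 100 bases. It was present in 45.5% of 808 such members, 47.1% of 1323 genes with shared peaks elsewhere and 37.4% of 11940 genes without one. Member features were read from the transcript whose start codon was covered, and those of other genes from the reference transcript. Over the 844 reference transcripts with a covered start codon, the medians were 346 bases for the 5′ UTR and 811 for the exon. An upstream ATG was present in 42.0% of the 710 with at least 100 bases of 5′ UTR. The part of peak width in these lengths was not tested.

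The GC content of 100 bases on each side of the start codon had a median of 60.0% for members, the same as for genes with shared peaks elsewhere, and 57.2% for genes without a shared peak. The 2 sides of the codon gave separate values. Upstream of the start codon members had a median of 60.0% and genes with shared peaks elsewhere 64.0%, whereas downstream members had 59.0% and the other genes 56%. The medians over all start codon peaks of each replicate were 59.5% and 62.5% (mean 61.0 ± 2.12 SD, n = 2), and the spread between replicates was not computed for each side alone. Over reference transcripts only, the members had 61.0% upstream and 60% downstream. Among genes with a shared peak, the percent with a member was 35.0 to 38.7 in classes of GC content from 40 to 80%, 26.8 (11 of 41 genes) at 30 to 40% and 19.4 (12 of 62 genes) at 80 to 90%. Fold enrichment was weakly and negatively related to GC across 863 members (Spearman's rho -0.14 in replicate 1 and -0.13 in replicate 2), given as a description. The predicted folding energy of the same windows had a median of -30.4 kcal per mol for members and -29.9 and -28.3 for the other sets. In the same order of sets it was -27.1, -26.4 and -26.6 at a GC content of 50 to 60%, and -34.1, -34.5 and -34.3 at 60 to 70%.

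**Figure D5:**
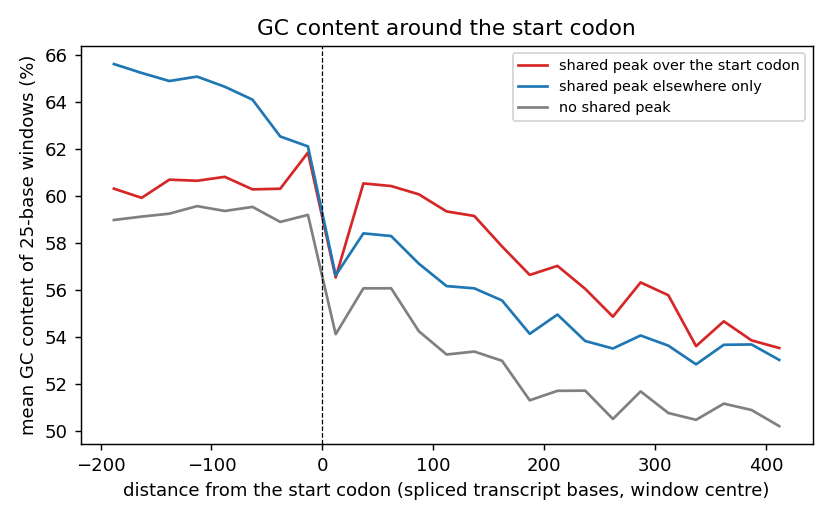
Mean GC content of 25-base windows (y axis, percent) by distance from the start codon (x axis, spliced transcript bases) for genes with a shared peak over the start codon (red), with shared peaks elsewhere only (blue) and without a shared peak (grey). At 100 bases before the codon the means are 60.8, 64.6 and 59.4%, and at 100 bases after it 59.3, 56.2 and 53.2%.

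The m6A motif was searched on the transcript strand only, in the 150 bases on each side of the start codon. GGAC was found in 80.4% of 832 member windows, 80.7% of windows of genes with shared peaks elsewhere, 76.6% of windows without a shared peak and 77.2% over all coding genes. The longer GGACT, which contains GGAC, was found in 34.7% of member windows, 31.0% and 31.2% in the other sets and 31.4% over all coding genes. At a GC content of 50 to 60%, GGAC was present in 77.1% of member windows, 83.4% of those with shared peaks elsewhere and 78.5% of those without one. At 70 to 80% the order was the other way, with 87.1% of member windows against 81.3% and 81.6%, and at 40 to 50% the values were 71.2, 70.7 and 66.0%. Of the non-histone genes in the first set of sequences, Zfp217 and Syt14 have GGAC in the first 90 coding bases, printed here from the A of the start codon with GGAC in capitals, and Wnt1 and Egr2 do not.
Zfp217: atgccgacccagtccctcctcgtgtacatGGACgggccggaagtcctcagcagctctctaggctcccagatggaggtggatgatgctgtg
Syt14: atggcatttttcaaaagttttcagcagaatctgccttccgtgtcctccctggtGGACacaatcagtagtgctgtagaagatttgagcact

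The start codon context of members was close to that of other genes. A purine at -3 was present for 83.4% of 911 members and 84.7% of all coding genes, and a G at +4 for 47.0% and 49.7%. Both were present for 39.4% of members, 41.9% of genes with shared peaks elsewhere and 41.7% of genes without one. The value over all start codon peaks was 41.5% in replicate 1 and 39.3% in replicate 2 (mean 40.4% ± 1.54, SD, n = 2). The gap between the members and the other sets was larger than that SD, while the replicate values themselves lay nearly as far apart. Over the 844 reference transcripts with a covered start codon, both bases were present for 41.5%. An alanine codon directly after the ATG was present for 16% of members, against 21.9% of genes with shared peaks elsewhere and 22.2% of all coding genes. It was 16.7% over those reference transcripts.

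The rule has thresholds, and values near them are given as a description. The smallest overlaps that made a member were 17 bp in Ptar1 (1.87 and 2.79), 47 bp in Loxl1 (2.89 and 3.35) and 49 bp in Cbr3 (1.85 and 2.08). Just outside, start codon peaks of replicate 1 in Nog (1.84), Rdh10 (1.71) and Eps8l1 (1.67) ended 1, 20 and 76 bp from the nearest replicate 2 peak. At the start codon itself, 12 members held less than the whole codon, among them Rara, Fam196a and Rnf43 with 1 base each. A further 100 shared peaks ended within 50 bp of a start codon without reaching it, among them those of Scaf8 (2.72 and 1.71) and Zfp551 (3.71 and 3.85), at 1 bp.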

How the data were processed

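Per the labels and the methods of the study, the authors aligned trimmed reads to the mm10 genome with TopHat2 (2.0.9 in the submitters' processing notes), kept uniquely mapped reads and called peaks in each replicate with MACS2 (2.0.10 in the same notes, where the methods give other releases of both) at a false discovery rate threshold. The deposited value of a peak is its fold enrichment, a linear ratio over a control library that the sources used here do not name. The read depth behind it is not given in the sources used here, so no value could be given a precision from depth, and the SD of both replicates was used.

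From the deposited lists, shared peaks (overlap of at least 1 bp), start and stop codons, exon bases and sequences were computed with Python 3.11.15, numpy 2.4.6, scipy 1.17.1 and pandas 2.3.3 on GENCODE M21 and its transcript sequences (GRCm38). Classes were given in the order start codon, stop codon and other exon of a coding gene. GC and folding windows (100 bases on each side, ViennaRNA 2.7.2) needed at least 50 bases on each side, and GGAC windows (150) at least 75. The reference transcript of a gene was chosen by APPRIS, basic tag, CCDS, support level and coding length. Intervals are 95% Wilson intervals. Figures were drawn with matplotlib 3.10.9. The functions were tested on simulated data of 200 genes and recovered all 8 quantities.

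Named genes were the 12 most and 5 least enriched, up to 4 leading members of each gene list, members at the thresholds, the widest member and the 5 with the largest difference between replicates. Pde4d, Tent5c, Rapgef2, Samd4, Macf1 and genes of the lists that held no member were named after their values were seen. A few genes that this rule selects are not reported here. The members and the gene lists were chosen with earlier results of these data known, and support nothing by themselves. Alternatives changed the overlap rule, the fold enrichment minimum, the annotation, the start codon overlap, the stop codon peaks, the replicate counted, the gene of a peak, the windows, the motif and the codon context. No test between groups exists, since there was 1 condition.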

Additional observations from a re-analysis of the deposited data

How the results depend on the processing

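Of 92 alternative values for 9 results, 67 stayed within 1.5 times the main value (counts) or 1 SD between replicates of it (shares and medians), and 25 moved further. With an overlap of at least 50% of both peaks, 53.6% of start codon peaks of replicate 1 were shared and 84.7% of partners covered the start codon. When both peaks had to reach 4-fold, 125 peaks in 120 genes remained, and 50.8% of the start codon peaks above that value were shared. The medians were then 6.10 and 6.16, and their rise was forced by the minimum. The GC content was 57.0%, GGAC was present in 77.9% and the purine with G context in 37.5%. Counting replicate 2 peaks gave a shared percent of 62.5, partners over the start codon in 80.6% and a replicate 1 median of 2.48. For both of these shares the SD came from the same pair of directions, so they counted as moved by construction. Other windows or definitions gave GGAC in 43.6% (50 bases) and 95.4% (300 bases), GGACT in 34.7%, a purine at -3 alone in 83.4% and a G at +4 alone in 47.0%. These definitions change the quantity itself. Alternatives chosen after seeing the data left out histone genes, which moved no result, or used the reference transcripts alone, where the context was present in 41.5%. Single replicates gave 1322 to 1513 peaks in 1226 to 1416 genes, a median of 2.59 for replicate 1 alone and 2.74 for replicate 2 alone, a GC content of 59.5 to 62.5%, GGAC in 80.2 to 81.5% and the context in 39.3 to 41.5%.

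No paired analysis was possible because there was 1 group. Read totals are unknown, so an absent peak cannot be told from low read numbers, and the lists hold no FDR for a stricter threshold. The control library of the call, the loss of reads that match several histone or protocadherin copies, and the strand of peaks over overlapping genes limit single values. No result met a rule for a closer look, since no group had 4 samples and there was no second group.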
